A study of Mus musculus with 12 samples.

Results

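The genes described here fold, modify and clear proteins in the endoplasmic reticulum (ER). They were 35 genes, chosen by symbol from a list of ER stress sensors, chaperones, disulfide enzymes, degradation factors and translocon subunits, out of 23420 genes in the count tables. The members were chosen with earlier results of these data known, so counts of members set against all genes only describe this set. All 35 were in the tables for both Tsc1 backgrounds, and all 35 passed the filter on low counts in both.

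RNA was sequenced from dissected liver of C57BL/6 mice in 4 groups of 3 libraries. Tsc1/p62Δhep mice carried floxed Tsc1 and floxed p62 alleles with Alb-Cre, a recombinase driven by the albumin promoter and so active in hepatocytes. Tsc1Δhep mice carried floxed Tsc1 with the same Cre. p62Δhep mice carried floxed p62 with Alb-Cre, and p62F/F mice carried floxed p62 without Cre. The p62 protein, encoded by Sqstm1, is an autophagy receptor, and Tsc1 is a subunit of a complex that restrains the growth kinase mTORC1. Because p62F/F is the only group without Cre, effects of the recombinase and of p62 loss cannot be told apart against p62F/F, whereas Tsc1/p62Δhep and Tsc1Δhep both carry Cre. The sources used here do not give each animal's age, sex or diet, or whether a piece of liver held tumour. They number 3 samples a group without saying that these are separate animals, so a p-value reflects only how these samples spread, possibly for technical reasons.

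The libraries held 15792048 to 33377247 counts. Sqstm1 fell to 17.5, 12.4 and 19.8 CPM (counts scaled to library size) in p62Δhep livers, against 316, 351 and 349 CPM in p62F/F livers. It fell to 14.4, 17.4 and 19.6 CPM in Tsc1/p62Δhep livers, against 1210, 789 and 1002 CPM in Tsc1Δhep livers. Tsc1 lay at 9.35 to 13.7 CPM in Tsc1/p62Δhep and 5.39 to 10.9 CPM in Tsc1Δhep livers. It lay at 26.0 to 39.7 CPM in p62Δhep and 28.1 to 34.9 CPM in p62F/F livers. On library totals Tsc1 had 12.3, 10.6 and 8.09 CPM in Tsc1/p62Δhep livers, against 6.12, 5.96 and 13.3 CPM in Tsc1Δhep livers. There it had 43.0, 30.7 and 25.2 CPM in p62Δhep and 26.1, 34.4 and 35.7 CPM in p62F/F livers. In every group none of the 12 hepatocyte markers was at 0 in all 3 libraries. The filter on low counts kept 11 of the 12 in the Tsc1-intact pair and all 12 in the Tsc1-deleted pair. These are bulk samples, in which fewer cells of a type and less RNA per cell cannot be told apart.

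Unfolded protein in the ER is sensed by the membrane proteins IRE1, PERK and ATF6, which start the unfolded protein response. IRE1 splices the mRNA of Xbp1, ATF6 is cleaved into a transcription factor, and PERK slows translation and favours ATF4 and CHOP. XBP1 and ATF6 raise the genes of chaperones and of ER-associated degradation, in which misfolded proteins are pulled back to the cytosol for the proteasome. Hepatocytes secrete most plasma proteins and so have a large ER.

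Many of these genes carry the ER stress response element (ERSE) or ERSE-II near their start. ERSE was spelled as CCAAT, 9 bases of any kind, then CCACG, and ERSE-II as ATTGG, 1 base of any kind, then CCACG. Both motifs, and the core of the unfolded protein response element (UPRE), TGACGTGG, were searched on both strands from 250 bases before to 50 after each start in RefSeq promoters (GRCm38.p6). A promoter was given for 29 of the 35 members. ERSE was found in 10 of the 29, or 34.5%, and in 37 of all 27025 genes with a promoter, or 0.137%. ERSE-II was found in Dnajb11 and Herpud1, and in 0.0444% of all genes. The UPRE core was found in Sec24d, and in 0.714% of all genes. No 2 sites of different motifs overlapped in a member. A match describes the letters and is not a measured binding site. The 250 bases before the start of Hspa5, the most studied target of this response, are shown first. The matches of some of the other members follow, each with 20 bases on either side and with the fixed letters of the motif in capitals. A site on the opposite strand reads CGTGG before ATTGG.
Hspa5, chr2:34771840-34772089, + strand: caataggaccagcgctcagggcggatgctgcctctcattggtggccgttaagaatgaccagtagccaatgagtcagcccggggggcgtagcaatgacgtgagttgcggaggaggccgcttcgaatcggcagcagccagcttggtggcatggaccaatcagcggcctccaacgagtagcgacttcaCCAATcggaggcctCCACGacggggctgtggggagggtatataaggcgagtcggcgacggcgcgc
Calr ERSE, chr8:84847055-84847113, - strand: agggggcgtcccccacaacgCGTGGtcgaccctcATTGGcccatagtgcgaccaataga
Dnajc3 ERSE, chr14:118937807-118937865, + strand: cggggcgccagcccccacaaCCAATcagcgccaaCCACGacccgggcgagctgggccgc
Creld2 ERSE, chr15:88819500-88819558, + strand: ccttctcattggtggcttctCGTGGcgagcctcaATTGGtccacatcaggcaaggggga
Syvn1 ERSE, chr19:6046512-6046570, + strand: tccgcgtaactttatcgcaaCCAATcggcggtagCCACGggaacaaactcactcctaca
Derl3 ERSE, chr10:75893222-75893280, + strand: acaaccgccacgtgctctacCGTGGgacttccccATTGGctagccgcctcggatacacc
Herpud1 ERSE-II, chr8:94386357-94386407, + strand: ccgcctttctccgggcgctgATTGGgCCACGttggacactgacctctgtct

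On the scale of CPM per kilobase of exon, with CPM taken on library totals, chaperones, lectins and disulfide isomerases were among the highest members, in a different order in each group. In p62Δhep livers Hsp90b1, the ER form of Hsp90, averaged 923 ± 237 and Hspa5, the Hsp70 chaperone BiP, averaged 877 ± 258 (SD, n = 3). In p62F/F livers the lectin chaperone gene Calr led at 586 ± 77.3, followed by P4hb at 525 ± 25.3, Hsp90b1 at 508 ± 110 and Hspa5 at 461 ± 73.0 (SD, n = 3 each). In Tsc1/p62Δhep and Tsc1Δhep livers the highest member was P4hb, a protein disulfide isomerase, at 436 ± 8.17 and 938 ± 220 CPM per kilobase (SD, n = 3 each). Herpud1, a degradation gene, was next in Tsc1/p62Δhep livers at 429 ± 137 (SD, n = 3), above Hsp90b1 at 290 ± 32.1. The sensors were among the lowest: Ern1, which encodes IRE1, averaged 4.32 ± 0.728 in Tsc1/p62Δhep, 6.56 ± 2.32 in Tsc1Δhep, 6.75 ± 1.12 in p62Δhep and 6.07 ± 0.788 in p62F/F livers (SD, n = 3 each).

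The members' summed share of all counts was 0.829, 0.818 and 0.874% in Tsc1/p62Δhep livers and 1.41, 1.43 and 1.14% in Tsc1Δhep livers. It was 1.5, 2.18 and 2.27% in p62Δhep livers and 1.22, 1.16 and 1.43% in p62F/F livers. Tsc1/p62Δhep livers thus had the lowest shares and p62Δhep livers the highest, with no overlap between these 4 groups except between Tsc1Δhep and p62F/F. Mean CPM was highest in p62Δhep livers for 25 of the 35 members, in Tsc1Δhep livers for 9 and in Tsc1/p62Δhep livers for 1, Herpud1. It was lowest in Tsc1/p62Δhep livers for 26 members. These levels are on library totals, and the order depends in part on the scaling. On the TMM scale used in the tests below, 12 of 35 log2 fold changes of Tsc1/p62Δhep against Tsc1Δhep livers were positive and 23 negative. The Tsc1-intact and Tsc1-deleted libraries came in separate tables, so these orders are descriptions with no test.

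**Figure D1:**
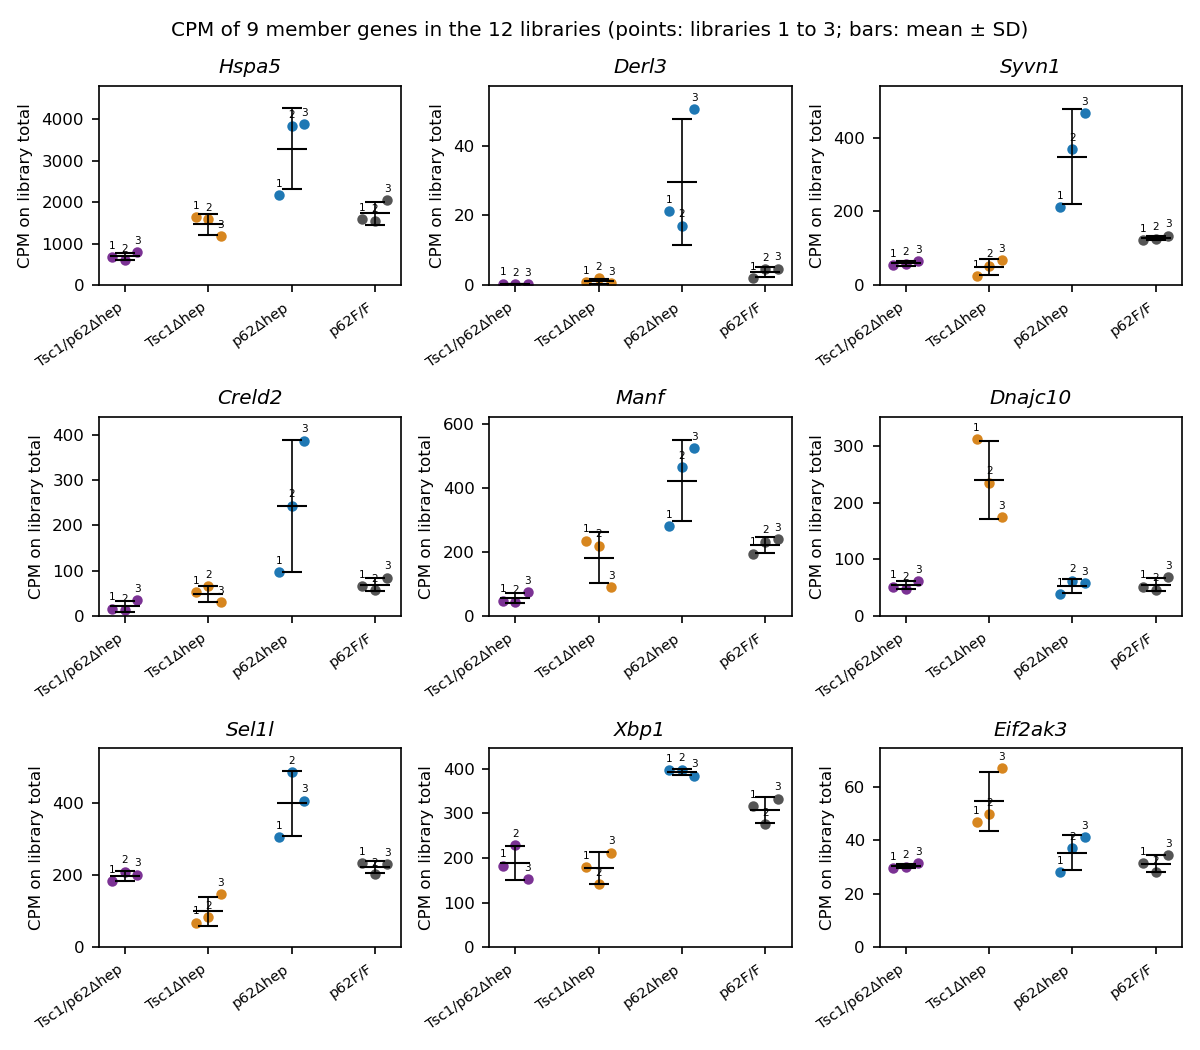
CPM on library totals (y axis) of 9 member genes in the 4 groups (x axis), with numbered points for libraries 1 to 3 and bars for the mean ± SD. Hspa5 averaged 3291 CPM in p62Δhep livers and 691 CPM in Tsc1/p62Δhep livers, while Dnajc10 stood apart in Tsc1Δhep livers at 241 CPM.

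All 6 Tsc1-deleted libraries lay below all 6 Tsc1-intact libraries for 10 members: Xbp1, Hsp90b1, Hyou1, Sdf2l1, Pdia4, Pdia6, Ero1lb, Edem1, Syvn1 and Derl3, and 6.11% of all genes did the same. They lay above for Atf6, as for 6.61% of all genes, and the libraries overlapped for the other 24 members. The share of counts from Rn45s, a ribosomal RNA precursor, was 0.0751 to 1.21% in the Tsc1-deleted and 1.91 to 3.50% in the Tsc1-intact libraries, and its part in this split was not tested. The spread within groups also differed. The median coefficient of variation over the members was 10.4% in Tsc1/p62Δhep, 24.2% in Tsc1Δhep, 22.4% in p62Δhep and 12.4% in p62F/F livers.

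The comparison of p62Δhep with p62F/F livers asked what loss of p62 in hepatocytes does where Tsc1 is intact. Most members had higher values in p62Δhep livers: 34 of 35 log2 fold changes were positive, against 50.7% of the 12567 genes tested. The members' median was 0.55, against 0.0043 over all genes. Library by library the values were uneven, with libraries 2 and 3 of p62Δhep well above p62F/F and library 1 close to it. By edgeR's quasi-likelihood test, 0 of 35 members passed an adjusted p of 0.05, and 0.0159% of all genes did, 2 genes that fell, Sqstm1 among them. limma also called 0 members. At an unadjusted p under 0.05 the edgeR test had 16 members, all higher, against 3.16% of all genes that were higher. DESeq2 called 33 genes higher, 0.273% of all genes, and 10 of the members: Hspa5, Hyou1, Sdf2l1, Manf, Pdia4, Creld2, Herpud1, Sel1l, Syvn1 and Derl3.

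All 3 p62Δhep libraries lay above all 3 p62F/F libraries for 16 members, as they did for 6.17% of all genes. No member had them all below, against 6.65% of all genes. Within p62Δhep, library 1 was the lowest of its group for 32 of 35 members. It lay above every p62F/F library for 18 members, within their range for 10 and below them for 7. Library 2 lay above every p62F/F library for 34 members and library 3 for 32. Relative to the p62F/F mean, the median member stood at 1.12-fold in p62Δhep 1 and at 1.69-fold in both p62Δhep 2 and p62Δhep 3. Among the p62F/F libraries, library 2 was the lowest for 28 members.

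**Figure D2:**
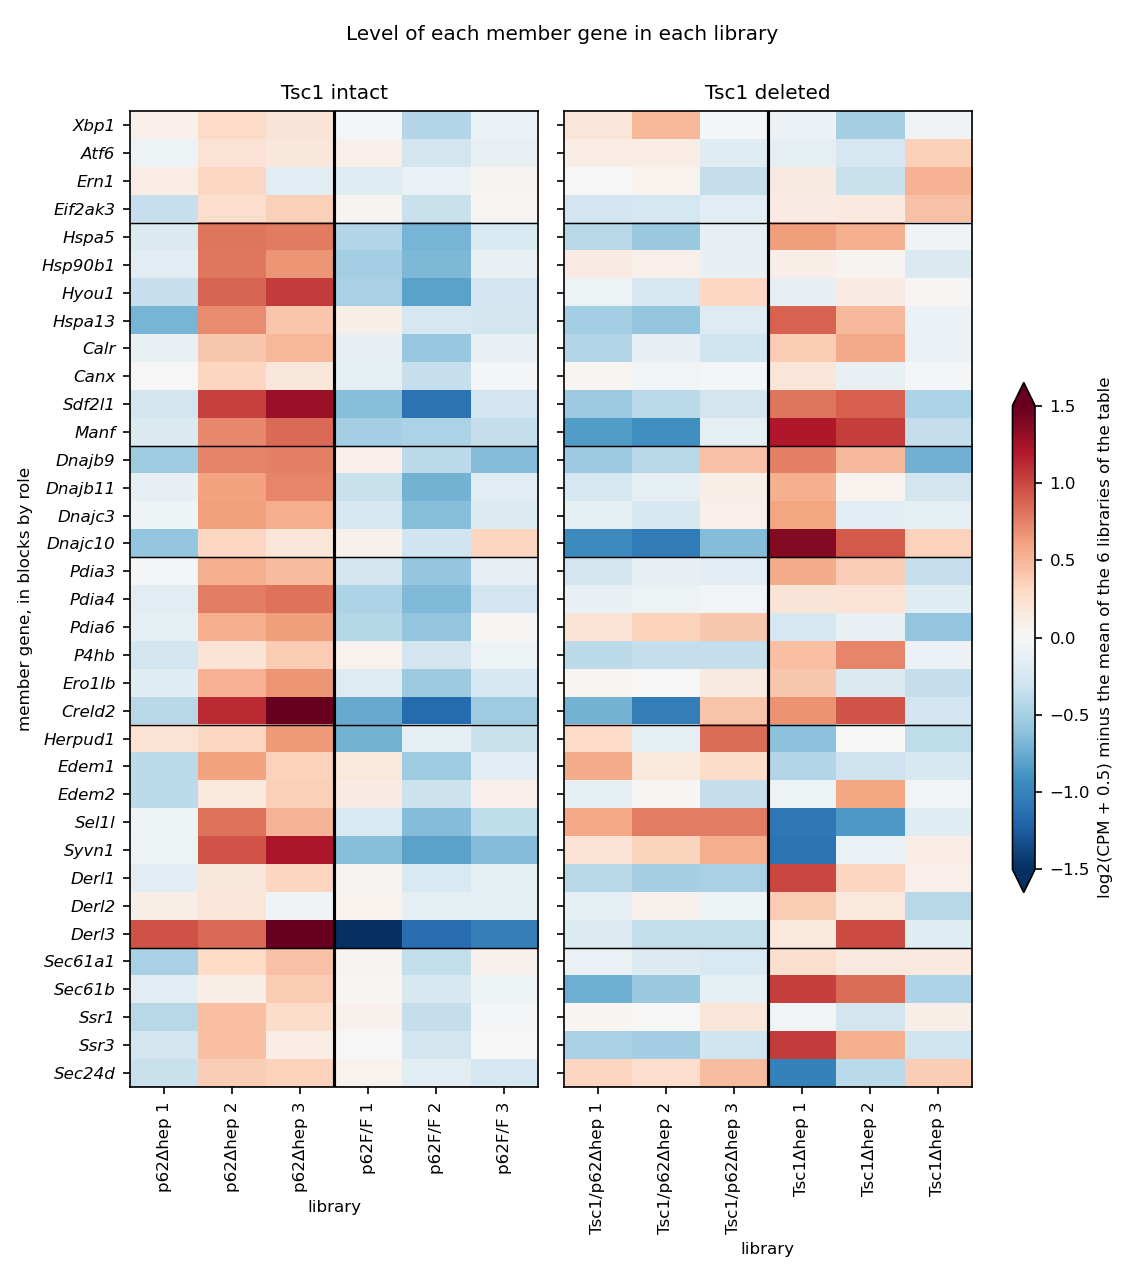
Level of each of the 35 members (rows, in blocks by role) in each library (columns), as log2(CPM + 0.5) minus the mean of the 6 libraries of its table, with colours saturating at 1.5 in either direction. In the Tsc1-intact table p62Δhep 2 and p62Δhep 3 stand above the other 4 libraries in most rows, and p62Δhep 1 is the lowest of its group in 32 rows.

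The sensors differed little. Xbp1, the transcription factor whose mRNA IRE1 splices, had 366, 426 and 398 CPM in p62Δhep livers, against 341, 256 and 326 CPM in p62F/F livers, scaled by TMM like the values that follow. The groups did not overlap, but the log2 fold change of 0.37 ± 0.16 (SE) did not pass the test (edgeR adjusted p = 0.623). Gene counts do not tell spliced from unspliced Xbp1.

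Atf6 had 103, 126 and 122 CPM in p62Δhep livers, against 115, 89.6 and 101 CPM in p62F/F livers. Ern1 had 56.0, 64.3 and 46.0 CPM in p62Δhep livers, against 45.6, 48.2 and 53.3 CPM in p62F/F livers. Eif2ak3, which encodes PERK, had 25.8, 39.5 and 42.4 CPM in p62Δhep livers, against 33.8, 26.0 and 33.5 CPM in p62F/F livers. The groups overlapped for all 3, with log2 fold changes of 0.20 for Atf6, 0.18 for Ern1 and 0.21 for Eif2ak3.

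The 8 chaperones and lectins had a median log2 fold change of 0.94. Hspa5 had 2009, 4091 and 4008 CPM in p62Δhep livers, against 1721, 1441 and 2001 CPM in p62F/F livers. Library 1 of p62Δhep stood just above the highest p62F/F library and libraries 2 and 3 well above it, with a log2 fold change of 0.97 ± 0.32 (SE, edgeR adjusted p = 0.511). Sdf2l1, a partner of ER Hsp40 proteins, had 85.0, 210 and 251 CPM in p62Δhep livers, against 66.3, 47.6 and 84.4 CPM in p62F/F livers. The lowest p62Δhep library again only just cleared p62F/F, and the log2 fold change was 1.46 ± 0.40 (SE, edgeR adjusted p = 0.403). Manf, a secreted ER stress protein that binds BiP, had a log2 fold change of 0.97, Hyou1, a large Hsp70-like chaperone, 1.16, and Hsp90b1 0.90. The lectin chaperones Calr and Canx had 0.55 and 0.33, and Hspa13, an Hsp70-like ATPase of microsomes, 0.39.

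Among the J-domain proteins, which direct BiP to its clients, Dnajb11 had a log2 fold change of 0.83, Dnajc3 0.75 and Dnajb9 0.73. Dnajc10, a disulfide reductase with a J domain, was the 1 member on the other side of 0, at -0.032. The disulfide enzymes had a median of 0.70. Creld2, an ER-stress gene with a role in disulfide exchange, had 89.6, 261 and 400 CPM in p62Δhep livers, against 71.0, 53.6 and 82.9 CPM in p62F/F livers. All p62Δhep libraries lay above p62F/F, with a wide spread among them, and the log2 fold change was 1.85 ± 0.49 (SE, edgeR adjusted p = 0.386). The disulfide isomerases Pdia4, Pdia6 and Pdia3 had 1.00, 0.69 and 0.67, the oxidase Ero1lb 0.71 and P4hb 0.22.

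The degradation genes held the member with the smallest p-value. Derl3, a derlin of the retrotranslocation channel, had 19.6, 18.3 and 52.1 CPM in p62Δhep livers, against 2.18, 4.21 and 4.60 CPM in p62F/F livers. The groups were far apart, library 1 included. The fitted group difference was 8.18-fold, a log2 fold change of 3.03 ± 0.49 (SE) that missed the threshold (edgeR adjusted p = 0.233). Markers of B and plasma cells, which also secrete heavily, summed to 237 to 342 CPM in p62Δhep livers and 234 to 388 CPM in p62F/F livers, and their part in Derl3 was not tested.

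Syvn1, the ubiquitin ligase HRD1, had 195, 395 and 482 CPM in p62Δhep livers, against 132, 117 and 131 CPM in p62F/F livers. Every p62Δhep library lay above the tight p62F/F group, with a log2 fold change of 1.49 ± 0.31 (SE, edgeR adjusted p = 0.307). Sel1l, the adaptor that holds HRD1 in its complex, had 281, 519 and 420 CPM in p62Δhep livers, against 250, 188 and 225 CPM in p62F/F livers, again without overlap (log2 fold change 0.88 ± 0.24 SE, edgeR adjusted p = 0.416).

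Herpud1, which recruits HRD1 complexes, had 448, 478 and 598 CPM in p62Δhep livers, against 236, 351 and 305 CPM in p62F/F livers. Here p62Δhep 1 was close to p62Δhep 2, and the log2 fold change was 0.77 ± 0.20 (SE, edgeR adjusted p = 0.386). Edem1 and Edem2, which mark glycoproteins for degradation, had 0.40 and 0.10, and Derl1 and Derl2 0.23 and 0.15. The 5 translocon and export members, Sec61a1, Sec61b, Ssr1, Ssr3 and Sec24d, lay between 0.21 and 0.28, and none of them separated the groups.

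Promoter letters and values can be set side by side. The 12 members with ERSE or ERSE-II had a median log2 fold change of 0.80 in this comparison. Of these, 10 had p62Δhep entirely above p62F/F, against 6.17% of all genes. The 17 with a promoter but neither motif had a median of 0.24, and 5 had p62Δhep entirely above. Sdf2l1, Pdia4 and Sel1l were among these 5. In the Tsc1-deleted pair, described below, the medians were -0.13 with either motif and -0.34 with neither. There 0 of the 12 and 2 of the 17 were called, against 24.2% of all genes. Neither motif was found in the sensors or the translocon and export members that had a promoter. The part of the motifs in the members' values was not tested.

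Other lists moved with the same libraries. The median level of 13 macrophage markers, relative to the mean of the 6 libraries on a log2 scale, was -0.30, 0.46 and 0.47 in p62Δhep livers and -0.22, -0.23 and -0.071 in p62F/F livers. For the 35 members it was -0.18, 0.52 and 0.47 in p62Δhep livers and -0.13, -0.44 and -0.13 in p62F/F livers. None of the macrophage markers was at 0 in all 3 libraries of a group. Their sum was 654 to 1028 CPM in p62Δhep and 585 to 694 CPM in p62F/F livers. The 19 acute phase and secreted cargo genes stood at -0.81, 0.87 and 0.72 in p62Δhep livers and at 0.55, -1.19 and -0.092 in p62F/F livers. The part of these lists in the members' values was not tested.

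**Figure D3:**
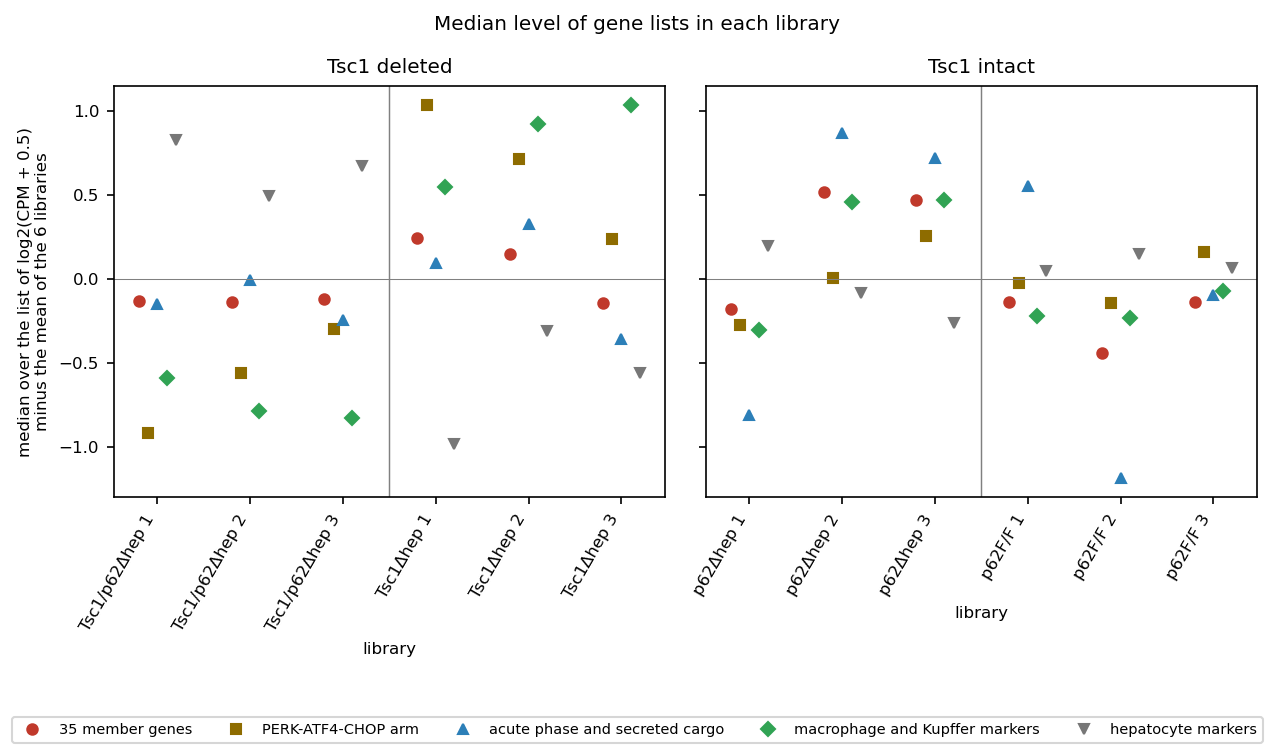
Median level of 5 gene lists (markers) in each library (x axis), as log2(CPM + 0.5) minus the mean of the 6 libraries of the table (y axis). Members, macrophage markers and secreted cargo are all high in p62Δhep 2 and p62Δhep 3, while in the Tsc1-deleted table the PERK-ATF4-CHOP genes and the macrophage markers are lower in all 3 Tsc1/p62Δhep libraries.

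Genes of the PERK-ATF4-CHOP arm, the stress branch that works through translational control, had a median log2 fold change of 0.024 in p62Δhep against p62F/F livers, with 0 of 14 called. At that threshold edgeR called 0 genes in each of the other 6 pathway lists, whose medians lay between 0.15 and 0.18. Cytosolic heat shock chaperones had a median of 0.47, with 11 of 12 positive. For 7 of these 12 all p62Δhep libraries lay above p62F/F, against 6.17% of all genes. Mitochondrial chaperones and proteases had a median of 0.10, with 7 of 10 positive and 2 entirely above.

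The comparison of Tsc1/p62Δhep with Tsc1Δhep livers asked what loss of p62 does where Tsc1 is deleted too. Here 3 members passed the test: Sel1l rose, and Dnajc10 and Derl1 fell. That is 1 of 35 higher, against 9.25% of the 12620 genes tested, and 2 of 35 lower, against 14.9% of all genes. Of all genes, 24.2% were called in either direction. The members' median log2 fold change was -0.24, against -0.049 over all genes. The groups did not overlap for 15 members, with 5 above and 10 below, against 22.3% of all genes above and 23.4% below.

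These counts depended on single libraries. Tsc1Δhep 3 was the lowest of its group for 20 of 35 members, and without it 3 members were called higher and 11 lower, against 20.9% and 24.4% of all genes. Without Tsc1Δhep 2, Tsc1/p62Δhep 1 or Tsc1/p62Δhep 2 none was called higher, against 2.69 to 3.51% of all genes, and 1 was called lower in each fit, against 5.82 to 9.10%. Without Tsc1/p62Δhep 3, 1 was called lower, against 9.37%. DESeq2 called 3 members higher, against 14.1% of all genes, and 8 lower, against 18.8%.

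Of the sensors, Xbp1 had 204, 255 and 176 CPM in Tsc1/p62Δhep livers, against 169, 127 and 174 CPM in Tsc1Δhep livers. Atf6 had 167, 167 and 137 CPM in Tsc1/p62Δhep livers, against 140, 130 and 199 CPM in Tsc1Δhep livers. Ern1 had 42.2, 43.8 and 32.8 CPM in Tsc1/p62Δhep livers, against 46.4, 33.6 and 60.9 CPM in Tsc1Δhep livers. The groups were apart for Xbp1 by a small margin and overlapped for Atf6 and Ern1.

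Eif2ak3 had 33, 33.5 and 36.2 CPM in Tsc1/p62Δhep livers, against 44.0, 44.9 and 55.0 CPM in Tsc1Δhep livers. The groups did not overlap, and the log2 fold change of -0.49 ± 0.19 (SE) did not pass the test (edgeR adjusted p = 0.101).

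Among the chaperones, Hspa5 had 746, 677 and 920 CPM in Tsc1/p62Δhep livers, against 1540, 1443 and 967 CPM in Tsc1Δhep livers. The groups were separated only narrowly at Tsc1Δhep 3 (log2 fold change -0.75 ± 0.27 SE, edgeR adjusted p = 0.0796). Manf had 54.0, 51.0 and 88 CPM in Tsc1/p62Δhep livers, against 223, 199 and 75.2 CPM in Tsc1Δhep livers. Its groups overlapped through Tsc1Δhep 3 (log2 fold change -1.37 ± 0.43 SE, edgeR adjusted p = 0.0545), and without that library the adjusted p was 0.00463. Hspa13 had 51.0, 48.4 and 63.6 CPM in Tsc1/p62Δhep livers, against 134, 102 and 68.1 CPM in Tsc1Δhep livers. It had a log2 fold change of -0.90 ± 0.28 (SE, edgeR adjusted p = 0.0545), and without Tsc1Δhep 3 the adjusted p was 0.00698. Hsp90b1, Hyou1 and Canx had log2 fold changes of 0.051, 0.0054 and -0.030.

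Dnajc10 had 58.1, 54.2 and 71.9 CPM in Tsc1/p62Δhep livers, against 294, 213 and 144 CPM in Tsc1Δhep livers. Every Tsc1/p62Δhep library lay below every Tsc1Δhep library, and the gene fell by 1.82 ± 0.30 on the log2 scale (SE, edgeR adjusted p = 0.0064), a call that held without each library in turn. On library totals Dnajc10 averaged 54.3 CPM in Tsc1/p62Δhep and 241 CPM in Tsc1Δhep livers, and 53.3 CPM in p62Δhep and 55.9 CPM in p62F/F livers. The other J-domain members had log2 fold changes of -0.23 to -0.41.

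Among the disulfide enzymes, P4hb had a log2 fold change of -0.77, Creld2 -0.85 and Pdia3 -0.43, while Pdia6 had 0.63. None passed the test.

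The degradation members went both ways. Sel1l had 204, 233 and 233 CPM in Tsc1/p62Δhep livers, against 64.3, 74.7 and 120 CPM in Tsc1Δhep livers. It rose by 1.37 ± 0.28 on the log2 scale (SE, edgeR adjusted p = 0.0127) with no overlap. The call was lost without Tsc1Δhep 2, Tsc1/p62Δhep 1 or Tsc1/p62Δhep 2, where the adjusted p lay between 0.0506 and 0.0632.

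Derl1, the derlin that links the channel to the ATPase p97, had 155, 146 and 147 CPM in Tsc1/p62Δhep livers, against 415, 259 and 219 CPM in Tsc1Δhep livers. It fell by 0.99 ± 0.28 on the log2 scale (SE, edgeR adjusted p = 0.0386), with all 3 Tsc1/p62Δhep libraries close together below the other group. The call was lost without Tsc1Δhep 2 or any of Tsc1/p62Δhep 1, 2 and 3, where the adjusted p lay between 0.0735 and 0.147.

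Edem1 had 249, 188 and 204 CPM in Tsc1/p62Δhep livers, against 124, 136 and 143 CPM in Tsc1Δhep livers. The groups did not overlap, and the log2 fold change of 0.67 ± 0.21 (SE) was just short of the threshold (edgeR adjusted p = 0.0527; 0.0259 without Tsc1Δhep 3). Derl3 was nearly silent in both groups, with 7, 6 and 6 counts in Tsc1/p62Δhep livers, against 18, 65 and 11 counts in Tsc1Δhep livers. Of the translocon members, Sec61b, Ssr3 and Sec61a1 had log2 fold changes of -1.06, -0.97 and -0.35, Ssr1 0.14 and Sec24d 0.59, and none passed the test.

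Around the members, the PERK-ATF4-CHOP arm had a median log2 fold change of -1.34. Of its 14 genes, 7 were called lower and 1 higher, against 14.9% and 9.25% of all genes. Nupr1, a stress-induced chromatin protein, fell to 1.06, 1.97 and 2.66 CPM in Tsc1/p62Δhep livers, against 180, 74.6 and 34.1 CPM in Tsc1Δhep livers (log2 fold change -5.66, edgeR adjusted p = 0.00251). Trib3, a pseudokinase target of CHOP, fell to 11.6, 11.8 and 12.5 CPM in Tsc1/p62Δhep livers, against 134, 76.4 and 45.9 CPM in Tsc1Δhep livers (-2.84, edgeR adjusted p = 0.00354). The transcription factor Atf3 fell to 1.27, 1.05 and 2.21 CPM in Tsc1/p62Δhep livers, against 38.4, 19.8 and 6.20 CPM in Tsc1Δhep livers (-3.82, edgeR adjusted p = 0.00827). Within Tsc1Δhep, library 1 was the highest and library 3 the lowest for all 3 genes. Cebpb, named after its values were seen, was the gene that rose (log2 fold change 1.46, edgeR adjusted p = 0.0183).

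Of 16 other folding and disulfide genes, 5 fell and 1 rose, with a median of -0.44 (values in parentheses here are edgeR adjusted p). For the calls in this and the following lists, the shares over all genes were 14.9% lower and 9.25% higher. Fkbp11, a prolyl isomerase of secretory cells, fell by 3.30 on the log2 scale (0.00972), Selm, a selenoprotein, fell by 2.25 (0.0315), and Txndc5, a disulfide isomerase, rose by 0.94 (0.0333). Of 18 ER export genes, the COPII coat gene Sec23a rose by 1.53 (0.0044) and the cargo receptor gene Mcfd2 fell by 1.43 (0.0445), while the COPII gene Sec24a had 0.97 (0.0732). The oligosaccharyltransferase gene Stt3b was the 1 of 15 glycan genes called, lower by a log2 fold change of -0.86 (0.0336). Next in that list were Ddost, of the same enzyme, at -0.84 (0.0526) and Ganab, a glucosidase subunit, at 0.75 (0.0560). Faf2, a p97 adaptor, rose by 0.83 (0.0443), the 1 of 18 other degradation genes called, ahead of the lectin gene Os9 at 0.59 (0.119) and the ubiquitin ligase gene Rnf139 at -0.59 (0.123). Mbtps1, which encodes the protease that cleaves ATF6, rose by 0.78 (0.0455), the 1 of 10 other regulators called, ahead of Sil1, a nucleotide exchange factor of BiP, at 0.56 (0.0892) and Creb3l3, a liver transcription factor of the ER membrane, at 0.70 (0.148). By edgeR, 0 of 16 other translocon and signal peptide genes were called.

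Some lists of cell type markers moved with these groups. Macrophage markers summed to 131 to 155 CPM in Tsc1/p62Δhep and 506 to 650 CPM in Tsc1Δhep livers. Of the 13, 9 were lower by the test, 3 had positive log2 fold changes and none was at 0 in all 3 libraries of a group. Cholangiocyte markers summed to 77.5 to 117 CPM in Tsc1/p62Δhep and 933 to 5619 CPM in Tsc1Δhep livers, with 3 of 7 lower. Of 12 hepatocyte markers 6 were higher. Over all genes, 14.9% were called lower and 9.25% higher. Endothelial markers and those of stellate cells and fibroblasts went both ways, with positive log2 fold changes for 4 of 9 and 5 of 10. The part of these markers in the members' values was not tested.

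The last comparison tested whether the effect of p62 loss differed with Tsc1, as the log2 fold change in the Tsc1-deleted pair minus that in the Tsc1-intact pair, over all 12 libraries. It was negative for 31 of 35 members, with a median of -0.98, against -0.073 over all genes, of which 53.3% were negative. By edgeR 9 members were called lower, against 9.32% of the 13231 genes tested, and 0 higher, against 6.76%. All 19 members with an unadjusted p under 0.05 were negative, against 18.8% of all genes, and DESeq2 called 16 lower, against 12.7% of all genes, and 0 higher, against 10.1%. limma called 8 lower, against 9.33%, and 0 higher, against 7.63%. Only p62F/F lacks Cre, so a part played by Cre cannot be told apart from it.

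**Figure D4:**
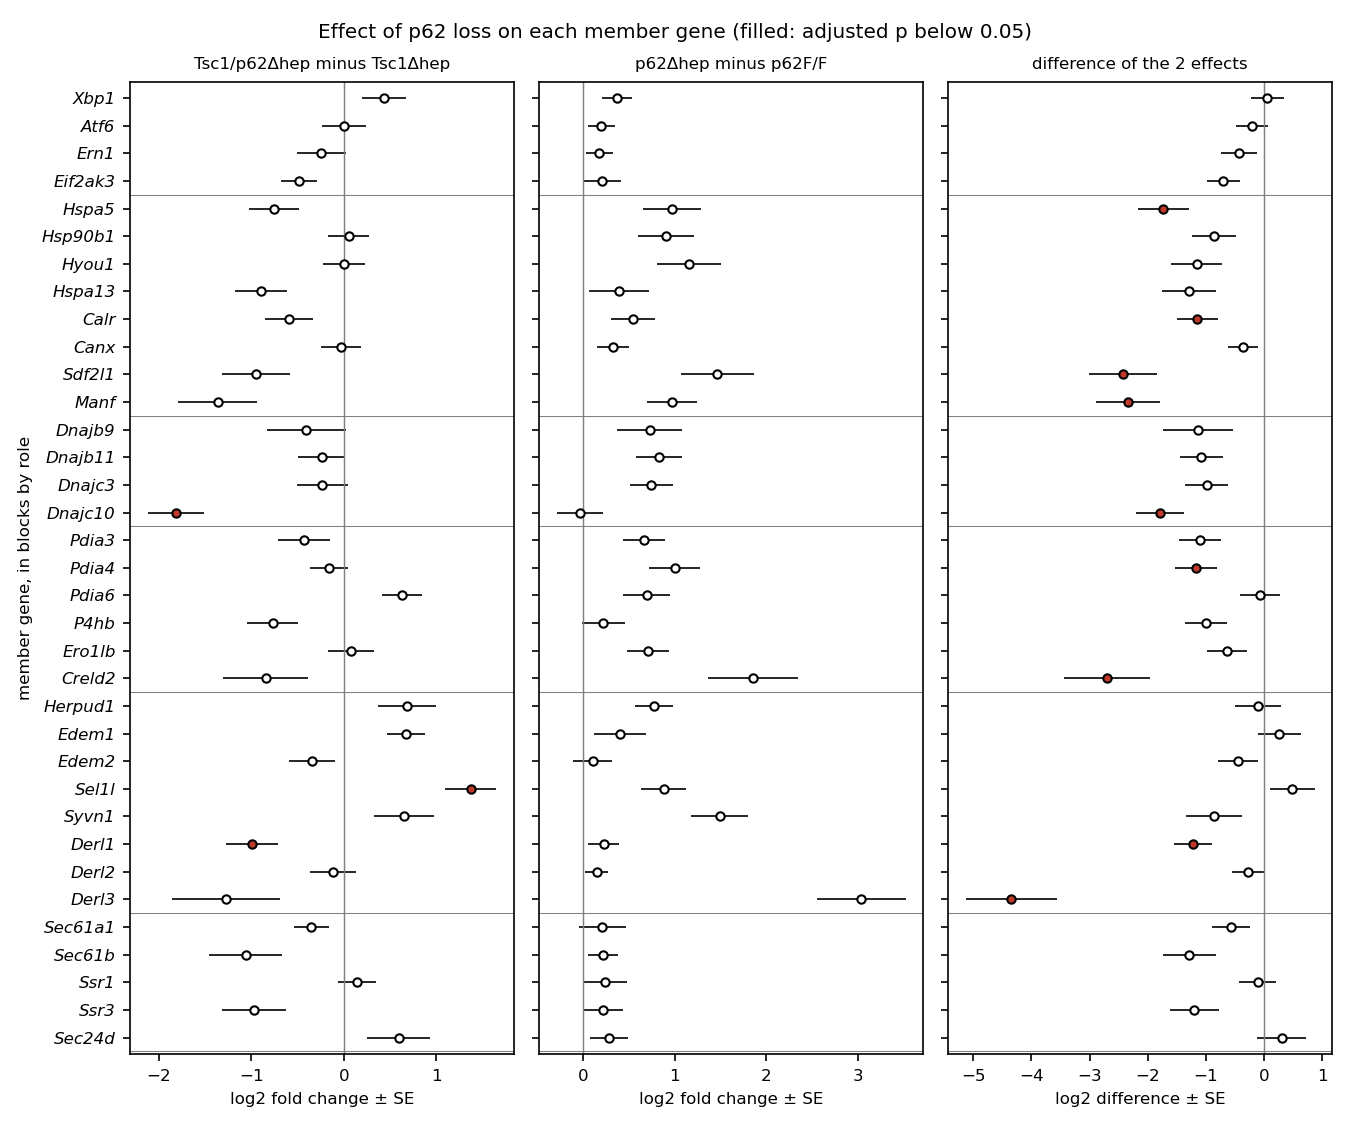
Log2 fold change ± SE of each member in the Tsc1-deleted pair (left), the Tsc1-intact pair (middle) and the difference of these (right), in blocks by role, with filled points past an adjusted p of 0.05. In the right panel 9 points are filled and all are negative, with Derl3 farthest at -4.35.

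Derl3 had the widest difference, at -4.35 ± 0.78 (SE, edgeR adjusted p = 0.00501), with log2 fold changes of -1.27 in the Tsc1-deleted pair and 3.03 in the Tsc1-intact pair. Manf differed by -2.34 ± 0.55 (adjusted p = 0.0159), with -1.37 in the Tsc1-deleted and 0.97 in the Tsc1-intact pair. Dnajc10 differed by -1.79 ± 0.41 (adjusted p = 0.0147), with -1.82 in the Tsc1-deleted and -0.032 in the Tsc1-intact pair. These 3 calls held without each library in turn. With replicate number added to the fit as a block, Derl3 kept its call. Dnajc10 (edgeR adjusted p = 0.0647) and Manf (edgeR adjusted p = 0.0809) lost theirs.

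Sdf2l1 differed by -2.42 ± 0.58 (edgeR adjusted p = 0.0179). The adjusted p was 0.0519 without p62Δhep 3 and 0.0515 without Tsc1/p62Δhep 1. Hspa5 differed by -1.73 ± 0.43 (adjusted p = 0.0204), with 0.0539 to 0.0595 without p62F/F 2, p62Δhep 2, p62Δhep 3, Tsc1/p62Δhep 1 or Tsc1/p62Δhep 2. Derl1 differed by -1.23 ± 0.33 (adjusted p = 0.0276), and its call was lost without 7 of the 12 libraries, all but p62F/F 1, p62Δhep 1 and the 3 of Tsc1Δhep, at 0.0528 to 0.0754.

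Creld2 differed by -2.71 ± 0.74 (edgeR adjusted p = 0.0289). Its call was lost without 7 libraries, all but p62F/F 3, p62Δhep 1, Tsc1Δhep 1, Tsc1Δhep 3 and Tsc1/p62Δhep 3, at 0.0604 to 0.081. Pdia4 differed by -1.17 ± 0.35 (adjusted p = 0.0441) and Calr, the lectin chaperone calreticulin, by -1.15 ± 0.36 (adjusted p = 0.0478). Both calls were lost without each library but p62Δhep 1 and Tsc1Δhep 3, at 0.0629 to 0.112 for Pdia4 and 0.0615 to 0.118 for Calr. Without p62Δhep 1, 15 members were called lower, against 8.22% of all genes, and without Tsc1Δhep 3, 16 members, against 18.9%. Without p62Δhep 3 or Tsc1/p62Δhep 1, 3 members were called lower, against 5.20% and 4.98% of all genes. Without p62F/F 2, p62Δhep 2 or Tsc1/p62Δhep 2, 4 members were called lower, against 5.12 to 5.67%.

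The members with values nearest 0 were Xbp1 at 0.058, Pdia6 at -0.076, Herpud1 at -0.10 and Ssr1 at -0.11, and Sel1l, at 0.49 ± 0.38, was the highest. Of the 12 members with ERSE or ERSE-II, 4 were called, with a median difference of -0.92. Of the 17 with neither motif 3 were called, with a median of -0.70. Of all genes, 9.32% were called lower. Only Derl3 of the 4 and Dnajc10 of the 3 kept their calls without each library in turn. The part of the motifs in these differences was not tested.

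In the same contrast, differences of cell type markers and other ER lists were also past the threshold. Over all genes, 9.32% were called lower and 6.76% higher there. All 13 macrophage markers had negative differences, with a median of -1.84 and 9 called lower, and all 12 hepatocyte markers had positive ones, with a median of 1.58 and 3 called higher. The part of these markers in the members' differences was not tested. Of 14 PERK-ATF4-CHOP genes 5 were called lower, with a median of -1.38. Among them were Nupr1 at -4.99 (edgeR adjusted p = 0.00323), Atf3 at -3.96 (adjusted p = 0.00867) and Ddit3, which encodes CHOP, at -3.18 (adjusted p = 0.0106). Of 16 other folding genes 3 were called lower: Fkbp11 at -3.68 (adjusted p = 0.0109), and the thioredoxin-like Erp29 at -1.94 (adjusted p = 0.0229) and Txndc12 at -1.12 (adjusted p = 0.0421).

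Of 19 ER export genes, Sec23a was called higher at 1.54 (edgeR adjusted p = 0.00397) and Mcfd2 lower at -1.71 (adjusted p = 0.0319), with the coat gene Sec13 next at -0.75 (adjusted p = 0.0848). Stt3b, at -1.13 (adjusted p = 0.0163), was the 1 of 15 glycan genes called, ahead of Ddost at -1.09 (adjusted p = 0.0533) and Rpn2 at -0.60 (adjusted p = 0.141). Of 17 other translocon and signal peptide genes, the peptidase subunit gene Sec11c was called lower at -1.80 (adjusted p = 0.0423). Spcs1, of the same peptidase, had -1.34 (adjusted p = 0.0689) and Ssr2 had -1.10 (adjusted p = 0.0712). The 18 other degradation genes had differences of -1.27 to 0.63, with a median of 0.098. The 10 other regulators had -1.06 to 0.63, with a median of -0.49. For the calls in all these lists, the shares over all genes were 6.76% higher and 9.32% lower.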

How the data were processed

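Per the labels' protocols, polyA RNA from flash-frozen liver was made into libraries with a directional kit and sequenced on either of 2 instruments. The sources used here do not say which library went on which, or name the aligner and counter. The authors deposited whole-number counts per gene symbol, in one table for the Tsc1-intact and one for the Tsc1-deleted groups. A human build, hg19, is named in the submitters' processing notes, while the symbols are of mouse genes. Whether counting used strand was not given either, and 6 members (Atf6, Hspa5, Pdia3, Pdia6, Syvn1 and Derl2) overlap another protein-coding gene in RefSeq, so their counts are less certain.

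Genes were filtered with filterByExpr (minimum count 10, total 15), scaled by TMM and tested with edgeR 4.0.16 quasi-likelihood in R 4.3.3, each table on its own, with Benjamini-Hochberg adjusted p below 0.05 over all genes. The difference of effects was fitted over 12 libraries. Alternatives were DESeq2 1.42.0, limma 3.58.1 on log2(CPM + 1), RLE scaling, no filter, all libraries in 1 fit, a replicate block and omission of each library. Levels across tables used CPM on library totals, per kilobase of merged exons (GENCODE M21). Totals of 15792048 to 33377247 counts limit precision for low genes only. Replicates differed beyond sampling noise (chi-square per gene 36.2 to 325). The scripts were tested on simulated data.

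The members and lists were chosen with earlier results of these data known. All members may be named. Values in every library are given for Xbp1, Atf6, Ern1, Eif2ak3, Hspa5 and the label checks Sqstm1 and Tsc1. In each pair of groups they are also given for the 6 members with the smallest p in that pair. The difference of effects is given as log2 differences. From each other pathway list with a call, the 3 genes with the smallest p are named.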

Additional observations from a re-analysis of the deposited data

Results flagged for a closer look

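For 9 members the effect of p62 loss, Tsc1-deleted pair minus Tsc1-intact pair, differed between the backgrounds by a test of the difference itself (edgeR interaction contrast over 12 libraries, adjusted over all genes). The log2 differences were -4.35 for Derl3, -1.79 for Dnajc10, -2.34 for Manf, -2.42 for Sdf2l1 and -1.73 for Hspa5. They were -1.23 for Derl1, -2.71 for Creld2, -1.17 for Pdia4 and -1.15 for Calr. By the same test 9.32% of all genes were called lower. Of these members, only Derl3, Dnajc10 and Manf kept their calls without each library in turn. With the replicate block only Derl3 kept its call. A part played by Cre cannot be told apart, because only p62F/F lacks it. Groups of 3 libraries are too small for a test of single outlying samples.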

How the results depend on the processing

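Where Tsc1 was intact, DESeq2 called 10 members and 33 genes higher and 136 genes lower, limma called 4 genes lower, and the fit of all 12 libraries 1. Leaving out 1 library at a time called 0 members, 0 to 1 genes higher and 1 to 48 lower. Where Tsc1 was deleted, RLE scaling and limma each called 2 members higher, against 9.52% and 10.8% of all genes. DESeq2 called 3 members higher, against 1775 genes or 14.1%, and 8 members lower, against 18.8%. The fit of all 12 libraries called 1 member higher, against 2249 genes or 17%, and 7 lower, against 2952 genes or 22.3%. Omitting Tsc1Δhep 3 with Tsc1/p62Δhep 1 called 2 members higher, against 11.3%, and 7 lower, against 14.7%. Omitting 1 library called 0 to 3 members higher and 1 to 11 lower. Over all genes these fits called 351 to 2686 higher, or 2.69 to 20.9%, and 760 to 3139 lower, or 5.82 to 24.4%. For the difference of effects, DESeq2 called 16 members lower, against 12.7% of all genes. There, omitting 1 library called 3 to 16 members lower, against 676 to 2551 genes or 4.98 to 18.9%, with 465 to 2401 genes higher.

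The correlations of same-numbered deviations from group means were -0.41, -0.51 and 0.03 in the Tsc1-intact and -0.08, -0.08 and -0.12 in the Tsc1-deleted pair. Differently numbered libraries had -0.16 to 0.53 in the Tsc1-intact pair, highest for p62Δhep 1 with p62F/F 2. In the Tsc1-deleted pair they had -0.04 to 0.11. The deviations of 3 libraries are tied to each other, so these values cannot settle whether samples were paired. With the replicate block 1 gene was called lower where Tsc1 was intact. Where it was deleted, 1 member was called higher, against 649 genes or 5.14% of all genes, and 1 lower, against 1198 genes or 9.49% (Derl1 edgeR adjusted p = 0.0814). For the difference 1 member (Derl3) was called lower, against 543 genes or 4.1%, with 368 genes higher.

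Members near 0 changed sign. In the Tsc1-deleted pair Hyou1 was -0.0106 with limma and -0.0105 with the block, Canx 0.0186 without the filter, and Hsp90b1 -0.0611 and Ero1lb -0.0189 without the 2 libraries. With 1 library left out, the log2 values where Tsc1 was intact were -0.20 to 0.20 for Dnajc10 and -0.064 to 0.30 for Edem2. Where Tsc1 was deleted they were -0.12 to 0.24 for Atf6, -0.44 to 0.011 for Ern1, -0.018 to 0.14 for Hsp90b1, -0.15 to 0.13 for Hyou1 and -0.089 to 0.067 for Canx. They were -0.39 to 0.0060 for Dnajb11, -0.35 to 0.064 for Dnajc3, -0.043 to 0.35 for Ero1lb and -0.29 to 0.065 for Derl2. For the difference they were -0.086 to 0.18 for Xbp1, -0.32 to 0.021 for Atf6, -0.27 to 0.074 for Pdia6, -0.39 to 0.11 for Herpud1 and -0.31 to 0.074 for Ssr1. The cause of these shifts was not tested. The depth limits Derl3 most, with 6 to 65 counts in the Tsc1-deleted livers.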
